A study of Mus musculus with 4 samples.

Results

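The heat shock proteins and chaperones of cultured mouse microglia were described from RNA sequencing counts. Members were the listed gene symbols of the HSP70, HSP110, HSP90, small HSP, HSP60/HSP10 and CCT chaperone families, the DNAJ co-chaperones, the BAG proteins and HspBP1, the co-chaperones Stip1, St13 and Ahsa1, and the heat shock factors Hsf1 and Hsf2. The symbol rule gave 91 of 56832 listed genes, after 12 symbols marked as pseudogenes were left out. The 4 libraries form 1 group, named cMG in the labels: microglia, the resident macrophages of the brain, from C57BL/6 mice labelled female, taken from primary cultures of glia, detached with trypsin and sorted by flow cytometry into a lysis reagent. No treatment is named, and neither the age of the animals nor the sort gates could be read from the labels. Whether the libraries came from separate cultures is not said either, so an SD or p here covers the differences among these libraries alone, and these may be technical. The series sets these cells beside blood progenitors cultured alone or with glia; those groups were not analysed here.

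Chaperones bind unfolded proteins and help them fold, assemble or be degraded. HSP70 proteins work in cycles of ATP hydrolysis that DNAJ proteins start and that nucleotide exchange factors, such as the HSP110 and BAG proteins, end; HSP90 takes over clients such as kinases and receptors, and the barrel-shaped chaperonins enclose a protein while it folds. Each compartment has its own set: the cytosol, the endoplasmic reticulum (ER), where secreted and membrane proteins fold, and the mitochondrion. Some cytosolic members are made all the time (constitutive), while others are strongly induced when the transcription factor HSF1 binds heat shock elements in their promoters; ER members are induced through the unfolded protein response.

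Promoter windows of members compared below are shown first, because these modes of control act through promoter elements. They are RefSeq sequences on GRCm38.p6, written 5′ to 3′ on the gene's strand and ending 1 base before the annotated start. Capitals mark matches, on either strand, to heat shock element units (GAANNTTC or TTCNNGAA, which may overlap) in the first 5 windows and to the ER stress response element (CCAAT and CCACG with 9 bases of any kind between them) in the last 3. Hspa1a and Hspa1b are the stress-inducible HSP70 genes and Hsph1 the inducible HSP110 gene; Hspe1 encodes mitochondrial HSP10, and Hspa4 is a constitutive HSP110 gene with no match. Hspa5 encodes the ER HSP70 (BiP), Hsp90b1 the ER HSP90 (GRP94) and Dnajc3 an ER DNAJ protein.
Hspa1a, chr17:34972157-34972406, minus strand: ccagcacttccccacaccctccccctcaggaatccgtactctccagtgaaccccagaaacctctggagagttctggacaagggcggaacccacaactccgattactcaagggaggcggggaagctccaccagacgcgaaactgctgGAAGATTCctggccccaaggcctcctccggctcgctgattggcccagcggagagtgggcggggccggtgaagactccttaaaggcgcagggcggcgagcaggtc
Hspa1b, chr17:34959239-34959488, minus strand: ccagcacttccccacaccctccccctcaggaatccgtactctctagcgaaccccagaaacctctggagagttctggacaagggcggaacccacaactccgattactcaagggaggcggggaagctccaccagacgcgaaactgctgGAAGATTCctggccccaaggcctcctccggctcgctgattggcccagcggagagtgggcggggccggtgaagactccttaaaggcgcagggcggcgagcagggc
Hsph1, chr5:149636337-149636586, minus strand: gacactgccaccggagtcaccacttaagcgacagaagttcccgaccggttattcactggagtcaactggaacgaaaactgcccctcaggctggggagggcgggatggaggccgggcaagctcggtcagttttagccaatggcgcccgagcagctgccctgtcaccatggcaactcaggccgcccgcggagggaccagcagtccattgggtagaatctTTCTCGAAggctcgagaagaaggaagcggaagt
Hspe1, chr1:55087948-55088147, plus strand: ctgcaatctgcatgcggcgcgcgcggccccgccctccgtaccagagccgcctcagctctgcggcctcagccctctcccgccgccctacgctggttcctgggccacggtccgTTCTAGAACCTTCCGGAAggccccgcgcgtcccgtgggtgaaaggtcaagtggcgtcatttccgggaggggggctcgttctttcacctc
Hspa4, chr11:53300480-53300729, minus strand: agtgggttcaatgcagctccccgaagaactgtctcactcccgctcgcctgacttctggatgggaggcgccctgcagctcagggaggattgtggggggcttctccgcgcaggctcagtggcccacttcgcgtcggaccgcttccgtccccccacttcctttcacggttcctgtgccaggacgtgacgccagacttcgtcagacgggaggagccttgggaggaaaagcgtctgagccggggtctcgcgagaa
Hspa5, chr2:34771840-34772089, plus strand: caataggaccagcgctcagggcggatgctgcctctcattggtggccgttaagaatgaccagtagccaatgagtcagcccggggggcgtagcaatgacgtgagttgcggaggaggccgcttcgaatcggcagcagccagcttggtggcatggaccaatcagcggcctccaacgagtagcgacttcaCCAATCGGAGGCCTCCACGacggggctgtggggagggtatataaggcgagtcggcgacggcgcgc
Hsp90b1, chr10:86705445-86705694, minus strand: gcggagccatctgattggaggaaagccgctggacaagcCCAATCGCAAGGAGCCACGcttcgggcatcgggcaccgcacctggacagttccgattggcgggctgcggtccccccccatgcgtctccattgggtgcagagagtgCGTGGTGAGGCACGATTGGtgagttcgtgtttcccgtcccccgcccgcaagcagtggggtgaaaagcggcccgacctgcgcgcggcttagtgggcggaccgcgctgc
Dnajc3, chr14:118937682-118937931, plus strand: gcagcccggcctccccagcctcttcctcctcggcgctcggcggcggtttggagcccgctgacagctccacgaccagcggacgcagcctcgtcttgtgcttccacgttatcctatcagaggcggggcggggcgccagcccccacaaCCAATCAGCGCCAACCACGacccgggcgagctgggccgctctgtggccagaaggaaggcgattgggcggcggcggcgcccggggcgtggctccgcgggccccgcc

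The windows of Hspa1a and Hspa1b were identical at 247 of 250 bases, and in both the GAANNTTC match lay 104 to 97 bases before the start. The Hspe1 window, which lies between the divergent Hspe1 and Hspd1 genes, held 3 overlapping 2-unit matches from 89 to 72 bases before the Hspe1 start. Of the 91 members, 73 had a promoter in the RefSeq table, with windows of 300 bases that reach 50 bases past the start. In these full windows GAANNTTC occurred in 15 of the 73 members (20.5%), against 9.04% of all 27025 genes with a promoter. It occurred in 5 of 6 inducible genes with a window (Hspa1a, Hspa1b, Hspb1, Hsph1 and Bag3, but not Dnajb1) and in 0 of 6 constitutive genes with a window. The inducible Hsp90aa1 and the constitutive Hspa8, Hsp90ab1 and St13 had no window, so their promoters were not examined. TTCNNGAA occurred in 8 members (11%), near the 9.60% of all genes, and in 1 of 6 inducible and 0 of 6 constitutive genes. The 3-unit form, in which GAANNTTC is followed by NNGAA and so contains both others, occurred in Dnajb6, Hspd1, Hspe1 and Hsph1 (0.662% of all genes). The ER stress response element occurred in 3 of 11 ER members with a window, Hspa5, Hsp90b1 and Dnajc3, and in 0.137% of all genes. A match is a description of the letters and not a measured binding site. The counts are of genes and not of independent sequences, since Hspa1a and Hspa1b have near-identical windows and Hspd1 and Hspe1 share a promoter.

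Libraries held 23212183 to 28469813 gene counts, and microglial markers matched the labels: Tmem119, P2ry12, Fcrls, Cx3cr1, Csf1r, Aif1 and Trem2 each had a mean above 100 TPM (counts per gene length, scaled to a common library total). All 8 astrocyte markers were detected, with a summed level of 233, 359, 394 and 313 TPM over the replicates from first to last. Summed oligodendrocyte markers were at 65.8 to 76.9 TPM with Mog at 0, mural and fibroblast markers at 99.1 to 156, endothelial markers at 24.8 to 28.1 with Tek and Emcn at 0, and neuron markers at 4.26 to 6.63 with Snap25 at 0. The labels give the sex as female; Xist was at 253 to 341 CPM (counts scaled to a fixed total of gene counts per library), but the Y-linked Ddx3y (30.0 to 41.5 CPM), Kdm5d, Eif2s3y and Uty were present in every library too. In sorted bulk cells, fewer cells of a type and less RNA per cell cannot be told apart.

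The chaperone genes were led by a few constitutive members. Together the members took 0.951% of the counts, and 79 of the 91 reached 1 CPM in each of the 4 libraries. The median was 30.9 TPM ± 2.60 (SD, n = 4 here and below) over the 90 members with a known length and 39.6 ± 0.924 over the 79 past the filter on low counts, beside 17.9 ± 0.184 for all 12879 genes past it. Hsp90ab1, the constitutive cytosolic HSP90, was the highest member, at 1365 ± 32.03 TPM, and Hspa8, the constitutive cytosolic HSP70, was next at 1178 ± 38.3. Their order turns with the length used: Hspa8 over Hsp90ab1 was 0.863 ± 0.0390 with merged exons and 1.30 with the longest coding transcript. Together they made up 30.9% ± 0.544 of the members' summed TPM, and with Hspa5 and Hsp90b1 included 44.3% ± 0.475. The 55 members of the cytosol and nucleus made up 69.8% ± 0.843 of that sum, the 12 ER members 20.5% ± 1.07 and the 8 mitochondrial members 6.80% ± 0.276. The 12 members under the filter included Dnajb8 and Hspb3, with 0 counts in every library (up to 0.129 CPM in any 1 library), and Dnajb3, Dnajb7, Dnajc6, Dnajc22, Hspa12b, Hspa1l, Hspb2, Hspb7 and Hspb9, with at most 19 counts in any library.

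**Figure D1:**
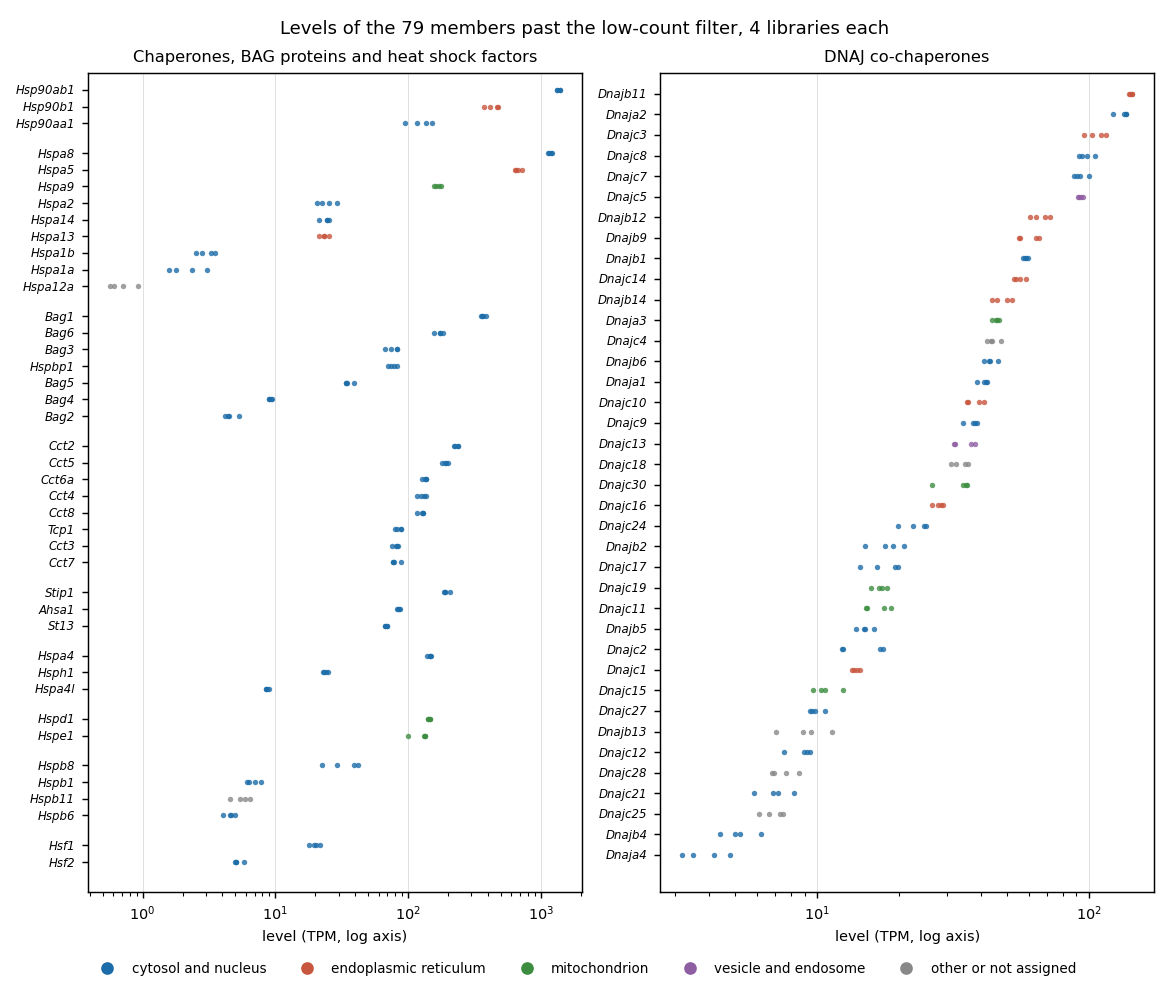
Level of each of the 79 members past the low-count filter, in TPM on a log axis, with 1 point per library and colour for the compartment; families other than DNAJ (right) are set apart by gaps on the left. Within most families the members span a range, for example from Hspa8 at 1178 TPM to Hspa12a at 0.702 TPM in HSP70, while most genes' 4 points lie close together.

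In each of the 6 pairs examined the inducible gene stood below the constitutive gene it was paired with, and the gap ran from 2.27 to 573 times. It was widest in HSP70. Hspa8 was at 1215, 1134, 1204 and 1158 TPM in replicates 1 to 4. The inducible Hspa1a was at 1.59, 3.06, 2.35 and 1.79 TPM (37, 63, 48 and 45 counts), and Hspa1b at 3.50, 3.29, 2.54 and 2.78 TPM (77, 64, 49 and 66 counts). The groups did not overlap: Hspa1a was lower than Hspa8 by 370.3 to 765 times and Hspa1b by 344 to 473 times (log2 ratios -9.11 ± 0.453 and -8.61 ± 0.221). Hspa1a and Hspa1b counts are uncertain because the genes are near copies: 48.6% of the 100-base windows of the Hspa1a transcript, and 49.9% of those of Hspa1b, also occur in another gene's transcripts, and 2.30% to 2.56% of all reads in the files were set aside as aligned to several places. Hspa8 shares still more, 62.8% of its windows with 7 annotated genes. Of the Hspa1a exon bases 19.0% overlap another annotated gene, beside 0% for Hspa1b and 6.09% for Hspa8. A further 1.99% to 2.31% of all reads were set aside as ambiguous between genes. Reads could not be recounted from these files. With the longest coding transcript as the length the log2 ratios were -9.96 for Hspa1a and -9.46 for Hspa1b. They were -10.42 and -9.89 when that length was also cut to its unshared share, with all reads kept, which assumes that no counted read came from a shared window.

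In HSP90 the inducible gene was lower by 11.3 ± 2.62 times. Hsp90ab1 was at 1336, 1393, 1392 and 1338 TPM and Hsp90aa1, the inducible form, at 151, 117, 94.8 and 138 TPM. Hsp90aa1 was thus high in replicates 1 and 4 and low in replicate 3, while Hsp90ab1 was nearly level, and the fold between them ran from 8.82 to 14.7 (log2 ratio -3.47 ± 0.328). Of the Hsp90aa1 windows 47.5% were shared with 3 other annotated genes, and of the Hsp90ab1 windows 0%. The log2 ratio was -3.46 with the longest coding transcript as the length and -2.53 with that length cut to its unshared share, under the same assumption.

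The gap was narrower among the partners of HSP70. In HSP110, whose members release ADP from HSP70, Hspa4 was at 146, 140.2, 147 and 149.8 TPM and the inducible Hsph1 at 23.01, 24.9, 23.9 and 23.3 TPM, a fold of 6.13 ± 0.355 (log2 ratio -2.61, and -1.94 with the longest coding transcripts). The third HSP110 gene, Hspa4l, was lower still at 8.65 ± 0.201 TPM. Among BAG proteins, Bag1, which couples HSP70 to the proteasome, was at 364, 356, 389.9 and 368 TPM. Bag3, the inducible member, which acts in chaperone-assisted autophagy, was at 82.7, 82.2, 67.4 and 75.0 TPM, 4.85 ± 0.672 times lower. The genes did not overlap, and Bag3 was lowest in replicate 3; without division by length the log2 ratio was -1.34 in place of -2.27. In the DNAJ family Dnaja2 was at 135, 122, 137 and 137 TPM and the inducible Dnajb1 at 57.1, 58.3, 59.5 and 58.5 TPM. This was the smallest gap of the 6, at 2.27 ± 0.119 times, and Dnajb1 varied little. The DNAJ and BAG gaps depend on the partner taken. Dnaja2 was among the highest of its family, and Dnajb1 was above the DNAJ median of 23.1 TPM. Bag3 was above Bag5 (35.4 TPM), Bag4 (9.17) and Bag2 (4.59), and below Bag1 and Bag6 (172).

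Each of the 6 log2 ratios had the same sign in 4 of 4 libraries, with p = 0.125 for each in an exact permutation test that flips signs (two-sided) and 0.125 after Benjamini-Hochberg adjustment over the 6 pairs, which is the smallest p that 4 libraries can give, so none can pass 0.05. Over the whole lists, the 7 inducible genes had a median log2(TPM + 1) of 4.63 ± 0.0482 and the 9 constitutive genes (Hspa8, Hspa4, Hspa14, Hsp90ab1, Dnaja2, Dnajc7, Bag1, Bag6 and St13) of 7.20 ± 0.0402. The inducible list was lower in every library (difference -2.57 ± 0.0832); this is a description, without a test. The inducible list made up 3.60% ± 0.346 of the members' summed TPM and the constitutive list 43.1% ± 0.666. The lists overlapped: Hspa14, a ribosome-associated HSP70, was at 24.0 ± 1.74 TPM, below Hsp90aa1, Bag3 and Dnajb1.

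**Figure D2:**
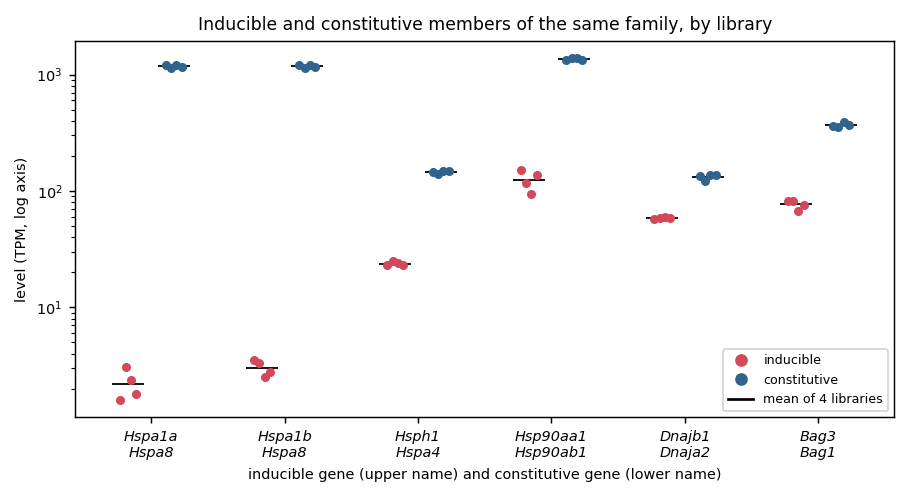
Level in TPM on a log axis of the inducible gene (red) and the constitutive gene (blue) of each of 6 pairs, with 1 point per library in the order of the replicates and a bar at the mean of 4. The red points lie below the blue ones in every pair, by 2.27 times on average for Dnajb1 and Dnaja2 and by 573 times for Hspa1a and Hspa8.

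Small heat shock proteins, which hold unfolded proteins without ATP, were the lowest chaperone family. Only 4 of 8 were at 1 CPM in all libraries. Hspb1 (HSP25 in mouse), an inducible member, was at 7.78, 6.15, 6.35 and 6.998 TPM, from 44 to 63 counts, and 42.7% of its windows occur in an annotated pseudogene. Hspb8, a partner of Bag3, was the highest of these members at 33.0 ± 8.97 TPM, and was low in replicate 1. Cryab, a small heat shock protein gene that is not among the members, was at 36.0 ± 4.66 TPM. Hspb6 was at 4.54 ± 0.372 TPM. The mean of Hspb11, also called Ift25 and known as a part of a cilium transport complex, was 5.57 ± 0.803 TPM.

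Across compartments, the leading cytosolic HSP70 and HSP90 genes were above the ER genes, and these above the mitochondrial ones. Hspa5 was at 725, 643, 651 and 669 TPM and Hspa9, the mitochondrial HSP70 (mortalin), at 171, 163, 176 and 156 TPM. Neither overlapped Hspa8 or the other. Hspa8 was 1.75 ± 0.0724 times Hspa5, and Hspa5 4.05 ± 0.272 times Hspa9; these 2 ratios were 2.74 and 3.30 with the length of the longest coding transcript in place of all merged exons. Hsp90b1 was at 471, 413, 372 and 477 TPM, so that Hsp90ab1 was 3.19 ± 0.451 times higher, and Hsp90b1 in turn was 3.51 ± 0.336 times Hsp90aa1. Trap1, the mitochondrial HSP90, which is not among the members, was at 85.0 ± 0.810 TPM. Hspa13, a second ER member of HSP70, was at 23.3 ± 1.67 TPM.

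The mitochondrial chaperonin Hspd1 (HSP60) and its lid Hspe1 (HSP10), whose genes are neighbours and share the promoter shown above, had similar levels per length. Hspd1 was at 147, 147, 142 and 142 TPM. Hspe1 was at 99.7 TPM in replicate 1 and at 134.7, 134 and 132 TPM in replicates 2 to 4. The ratio of Hspd1 to Hspe1 was thus 1.48 in replicate 1 and 1.06 to 1.09 in the others. Its size depends on the lengths used: the mean ratio was 1.18 with merged exons and 0.675 with the longest coding transcripts, so which gene is higher cannot be said.

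The 8 subunits of CCT, the cytosolic chaperonin that folds actin and tubulin and is built from different subunits in a ring, were all detected, within 2.98 ± 0.0734 times of each other. The median over subunits was 127 TPM ± 7.14 (mean 132 ± 4.65), beside a median of 17.9 TPM for all genes past the filter. Cct2 was highest at 238, 221, 240.3 and 226 TPM, and Cct7 lowest at 77.4, 76.5, 88.1 and 78.98 TPM. The other subunits were Cct5 (191 ± 8.35), Cct6a (133 ± 4.34), Cct4 (127 ± 8.88), Cct8 (126 ± 6.43), Tcp1 (85.2 ± 4.42) and Cct3 (80.8 ± 3.39). Some neighbours in this order (Cct6a and Cct4, Cct4 and Cct8, and Tcp1, Cct3 and Cct7) changed places between libraries. Cct6a was above Cct8 in each library, at 136 and 128 TPM in replicate 1 and at 133 and 130 TPM in replicate 4. With the longest coding transcript as the length the highest was 2.27 ± 0.0311 times the lowest, and the order changed: Cct3 was then at 184 TPM and Cct7 at 157, and Cct6a, which had no coding transcript in the annotation and kept its merged exon length, was lowest at 94.2. Of the 8 subunits, 6 were lowest in replicate 2, as were 22.4% of all genes tested, with a median of -0.08 on the log2 CPM scale against the mean of the other libraries; 0 of 8 passed the test of spread described below (0 also at an unadjusted p under 0.05, and 0 with DESeq2 size factors).

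**Figure D3:**
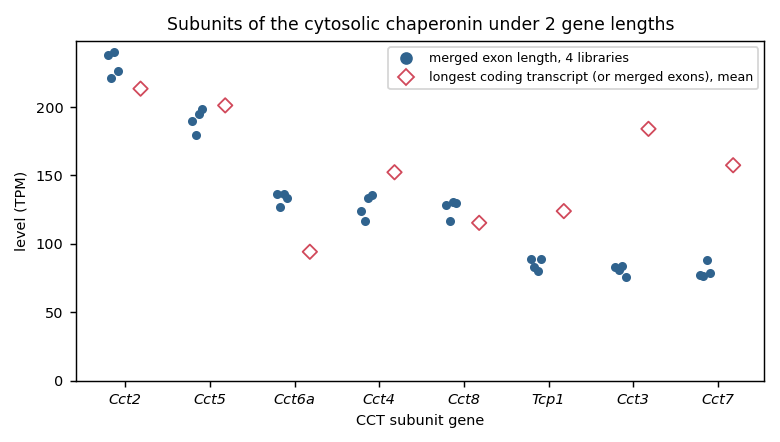
Level in TPM of the 8 CCT subunit genes. Blue points are the 4 libraries with merged exon length and red diamonds the mean with the longest coding transcript (merged exons for Cct6a). The libraries of a gene lie close together, while the change of length moves Cct3 and Cct7 most, from 80.8 to 184 TPM and from 80.2 to 157 TPM.

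The DNAJ family was the largest, with 43 members, of which 38 were at 1 CPM in all libraries, and its median was 23.1 ± 2.40 TPM. The highest were Dnajb11, an ER co-chaperone of Hspa5, at 144, 142, 144 and 141 TPM, and Dnaja2, by merged exon length. With the longest coding transcript the order was Dnajc7 at 137 TPM, Dnajb11 at 129.8 and Dnajc8 at 126, with Dnaja2 at 95.6. By compartment, the 9 ER members had a median of 54.5 ± 1.27 TPM, the 17 members of the cytosol and nucleus 19.3 ± 1.45 and the 5 mitochondrial members 17.9 ± 0.630; these medians rest on few genes and were not tested against each other. Dnajc7, a constitutive member that binds both HSP70 and HSP90, was at 92.9 ± 5.19 TPM. Named after their values were seen, Dnajc5, the vesicle protein CSP-alpha, was at 92.7 ± 1.87 and Dnajc13, an endosomal protein, at 34.8 ± 3.24, whereas Dnajc6 (auxilin), which uncoats clathrin vesicles, had 0 to 9 counts; Gak, its ubiquitous relative, was at 149 ± 4.37 TPM.

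Other regulators of the cycle spanned a wide range of levels, and 0 of them passed the test of spread described below. Bag6, which guards tail-anchored proteins, was at 172 ± 10.9 TPM, and Bag4 and Bag2 were the lowest BAG genes at 9.17 ± 0.255 and 4.59 ± 0.482. Stip1, which bridges HSP70 and HSP90, was at 194 ± 8.51 TPM, Ahsa1, which activates the HSP90 ATPase, at 84.8 ± 1.63 and St13, which binds HSP70, at 68.0 ± 1.15. The order of these genes depends on the length used. With the longest coding transcript Ahsa1 was at 191 TPM, St13 at 148 and Stip1 at 137. Hsf1, the main factor of the heat shock response, was at 17.8, 19.6, 21.8 and 20.4 TPM and Hsf2 at 5.09, 4.95, 5.01 and 5.82 TPM. The factors did not overlap, with Hsf1 3.83 ± 0.412 times Hsf2.

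Few chaperone genes passed the test of spread between libraries. The test asked, for each gene, whether the 4 libraries spread more than genes of like abundance (edgeR, trended dispersion, Benjamini-Hochberg over all genes). It was passed by 2 of the 79 members tested (2.53%), Hsp90aa1 and Hspb8, where 1.11% of all 12879 genes tested passed. On simulated data it recovered 14.9% of 1.5-fold changes in 1 library, so modest differences would mostly be missed. At an unadjusted p under 0.05 there were 5 members (6.33%), beside 6.79% of all genes, so the members' share was near the background. The median SD of log2 CPM was 0.0904 over these members, 0.129 over all genes tested and 0.121 over the protein-coding genes tested. These sets were not matched for abundance, and the members had the higher median level (39.6 TPM, beside 17.9 for all genes tested).

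Hsp90aa1 was at 173, 136, 110 and 161 CPM in replicates 1 to 4. It was highest in replicate 1 and lowest in replicate 3, with an SD of 0.305 in log2 CPM (edgeR adjusted p = 0.0019). The call rested on replicate 3: the edgeR adjusted p was 0.85 without it, and 0.0040 to 0.012 without any other library. With a common dispersion the gene did not pass. P2ry12, a homeostatic microglial receptor, was at 236, 185, 164 and 249 CPM, also low in replicate 3, and passed too; its part was not tested. Hspb8 was at 12.7, 22.5, 24.1 and 16.9 CPM, low in replicate 1 and high in replicates 2 and 3 (edgeR adjusted p = 0.049). It did not pass when any 1 of the libraries was left out, with an edgeR adjusted p of 0.067 to 0.68, nor with DESeq2 dispersions or with every gene that had a count. With DESeq2 size factors Hspb8 passed, and with a common dispersion it was the only member that did. The astrocyte markers moved with Hspb8: their median in replicate 1 was -0.69 in log2 CPM against the mean of the other libraries, and Gfap was at 39.8, 77.3, 76.9 and 56.9 CPM; Gfap, Slc1a3 and Clu passed the test. The mural marker Acta2, which passed too, was at 42.8, 57.2, 73.5 and 45.7 CPM, also lowest in replicate 1 and highest in replicate 3; Tagln and Pdgfrb had the same lowest and highest libraries, while Col1a1, Col1a2 and Dcn were lowest in replicate 3. The part of either marker list in the Hspb8 values was not tested.

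ER members tended to be high in replicate 1 and low in replicate 3. Of 12, 8 were highest in replicate 1 and 8 lowest in replicate 3, while 29.7% of all genes tested were highest in replicate 1 and 25.1% lowest in replicate 3. Their median deviation was 0.15 in replicate 1 and -0.14 in replicate 3 on the log2 CPM scale, beside 0.0026 in replicate 3 for all genes tested. Hsp90b1 was at 552, 492, 444 and 571 CPM, high in replicates 1 and 4, and did not pass (edgeR adjusted p = 0.34); 0 of the 12 ER members passed, and Hsp90b1 alone had an unadjusted p under 0.05. Replicates 1 and 4 were also the deepest libraries, with 27012285 and 28469813 gene counts; the part of depth was not tested.

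The inducible list had a median deviation of 0.15 in replicate 1 and -0.14 in replicate 3, against 0.013 and 0.018 for the constitutive list. Its members did not move as one: 4 of 7 were highest in replicate 1 and 3 of 7 were lowest there, beside 29.7% and 30.7% of all genes tested. With a broader list of 15 inducible genes the median in replicate 1 was 0.0071. In the same libraries the immediate-early genes, whose transcripts rise soon after a stimulus, had a median of 0.76 in replicate 1, where 16 of 18 were highest and 12 of 18 passed the test; their part in the chaperone values was not tested.

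**Figure D4:**
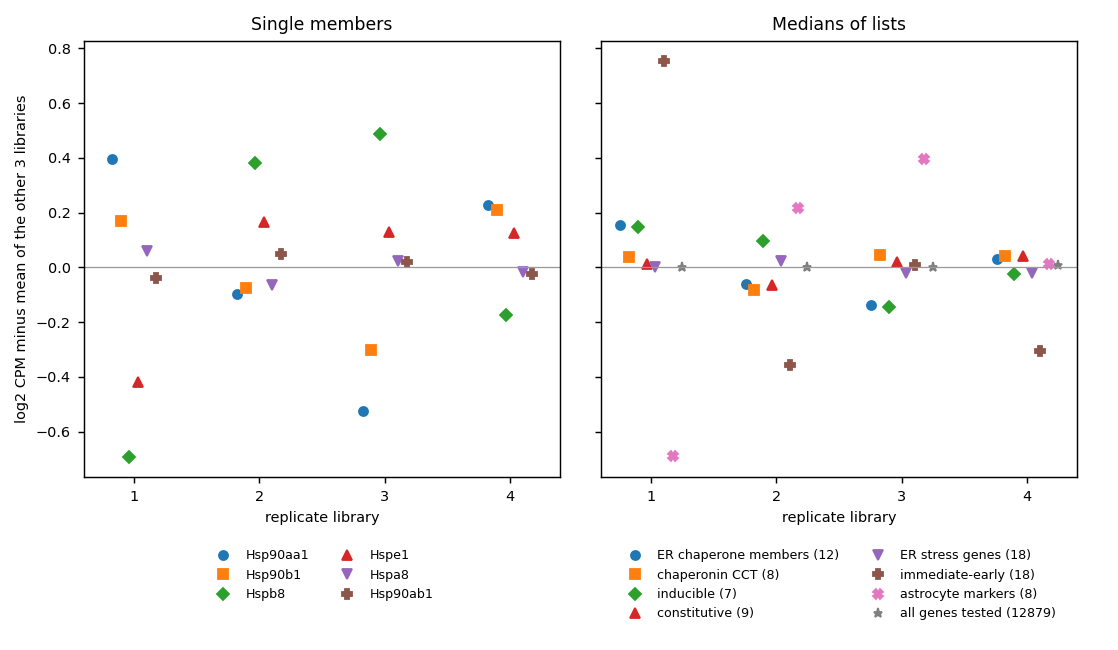
Deviation of each library from the mean of the other 3, in log2 CPM, for 6 members (left) and as the median of 8 gene lists with the number of genes tested (right). Hsp90aa1 is high in replicate 1 and low in replicate 3, Hspb8 is low in replicate 1, and the medians of the chaperone lists stay within 0.16 of 0 while the immediate-early median reaches 0.76.

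Among the genes with the largest spread at 10 CPM or more were also Dnajc2, a ribosome-bound co-chaperone, at 25.5, 18.5, 18.4 and 25.6 CPM, Hspe1, at 42.7 CPM in replicate 1 and 57.6 to 58.8 CPM in the others, and Dnajb4, at 15.9, 12.9, 11.4 and 13.6 CPM. Dnajc2 was high in replicates 1 and 4. None of these 3 passed (edgeR adjusted p = 0.49 for Dnajc2, 0.61 for Hspe1 and 0.9999 for Dnajb4).

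Other genes of the pathway came from a list of 38 chaperones and co-chaperones outside the members. Of the 36 tested 0 passed (edgeR; 1 had an unadjusted p under 0.05, and the lowest edgeR adjusted p was 0.086). That gene was Serpinh1, the collagen chaperone HSP47, at 16.5, 27.01, 28.0025 and 18.9 CPM. The highest were Pfdn5, a subunit of the prefoldin complex that passes proteins to CCT (415 ± 25.9 TPM), Hsbp1, which binds HSF1 (217 ± 14.0), and Fkbp8, a mitochondrial immunophilin (181 ± 9.59). Of 18 ER stress genes 0 passed (edgeR; 0 at an unadjusted p under 0.05). Their highest were the lectin chaperone Calr (1448 ± 51.4 TPM), the disulfide isomerase Pdia3 (709 ± 39.01) and Canx (416 ± 18.6), and their median deviation was 0.0015 in replicate 1 and -0.02 in replicate 3, where the ER members were at 0.15 and -0.14.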

How the data were processed

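Read counts per gene symbol were deposited by the authors, 1 file per library, not normalized. The genome was mm39 (GRCm39) and the software included HTSeq 0.11.2, SAMtools 1.16.1 and STAR 2.7.10a, per the submitters' processing notes; which annotation, strand and overlap settings applied is not stated there. Lines that name no gene held 11.6% to 12.0% of reads and were left out. There were 0 columns of no sample. TPM was computed with merged exon lengths from GENCODE M21 (GRCm38, lengths and names only), matched by symbol for 90 of 91 members. In that annotation the exons of some members overlap other genes, among them Dnajc30 (26.2% of bases), Tcp1 (16.9%), Hsp90b1 (15.7%) and Cct6a (15.3%). The part of such overlap in the counts was not tested. Each gene kept by filterByExpr was tested in edgeR 4.0.16 (R 4.3.3; TMM, 1 mean per gene, trended dispersion), its deviance set against chi-square on 3 degrees of freedom, with Benjamini-Hochberg adjusted p under 0.05. The quasi-likelihood test was not used because 1 group has no contrast. On simulated data for this comparison (12879 genes), 14.9% of 1.5-fold, 70.1% of 2-fold and 93.8% of 4-fold changes in 1 library were recovered. Chi-square over degrees of freedom between libraries was 5.17 to 13.6, above counting error in every pair, so each library was counted once.

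The members and lists were chosen with earlier results of these data known. Named genes were the inducible and constitutive lists, pairs, CCT subunits, main organelle chaperones, the 2 highest and 2 lowest of each family, members past the test or at 0, the 5 with the largest spread at 10 CPM or more, and of other lists the 3 highest and those past the test; others are named for their role or after their values were seen. Alternatives covered scaling (DESeq2 1.42.0 size factors), filter, dispersion, gene length, pseudocount, list and each library left out. Promoters are from RefSeq, GRCm38.p6. Limits from 0 counts cover counting error only. Values of 1 member and 1 marker gene are not reported here.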

Additional observations from a re-analysis of the deposited data

Results flagged for a closer look

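Of the 79 members tested, 4 had 1 library far from the other 3 (by Dixon's test on CPM). Chance flags about 1 in 20 groups, so a count of 4 among 79 is near what chance alone gives. Hspe1 was lowest in replicate 1, at 42.7 CPM, against 57.6 to 58.8 in the others. Dnajc30, a mitochondrial DNAJ protein, was also lowest there, at 12.8 CPM against 16.9 to 17.5. Hsf2 was highest in replicate 4, at 16.6 CPM against 14.1 to 14.3. Hspa4l was highest in replicate 2, at 31.1 CPM against 29.6 to 29.9.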

How the results depend on the processing

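Of the members past the test of spread, 2 became 1 with every gene that had a count, with a common dispersion and with DESeq2 dispersions, and 0 to 1 when each library was left out in turn (0 without replicate 3); the 2 were called with DESeq2 size factors too. The 143 genes called in all became 532 with a common dispersion, 69 with DESeq2 dispersions and 47 to 118 with a library left out. The difference between the inducible and constitutive medians (-2.57) became -2.002 with log2(CPM + 1), -2.20 with a pseudocount of 10, -3.23 with the mean over members and -1.78 with the broader inducible list. Among the pairs, values without gene length were -9.65 for Hspa1a, -9.23 for Hspa1b, -2.22 for Hsph1, -3.08 for Hsp90aa1, -1.08 for Dnajb1 and -1.34 for Bag3. With log2(TPM + 1), Hspa1a was at -8.55 and Hspa1b at -8.20. The alternatives chosen after seeing the data were coding transcript length, which gave -2.17 for the list difference, -9.96 for Hspa1a, -9.46 for Hspa1b and -1.94 for Hsph1, and the same length cut to its unshared share, with all reads kept. The latter changes the length in 2 ways at once and gave -10.42 for Hspa1a, -9.89 for Hspa1b and -2.53 for Hsp90aa1; Hsph1 and Hspa4 share no windows, so Hsph1 kept its coding-length value of -1.94. No pair changed sign under these alternatives. The deviation of the inducible list in replicate 1 (0.15) became 0.0071 with the broader list. Beyond what each alternative changes by its construction, the cause was not tested. No paired analysis was possible because there is 1 group. Depth limits the low members: Hspa1a rested on 37 to 63 counts per library.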
